A study of Mus musculus with 6 samples.

Results

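The thermogenic and browning genes are 10 genes that brown and beige adipocytes use to make heat or by which those cells are recognised, namely Ucp1, Cidea, Dio2, Ppargc1a, Prdm16, Elovl3, Cox8b, Cox7a1, Ckmt2 and Tmem26. They were chosen by gene name among the 54532 genes of the count table, and all 10 were found. The RNA came from eWAT, the epididymal depot of white fat, of male C57BL/6 mice obtained at 6 to 10 weeks of age and harvested on day 21. In the cachexia group, 3 mice bore subcutaneous tumors grown from LLC cells, a Lewis lung carcinoma line derived from the same mouse strain, and for the 3 control mice no inoculation is described. Neither group carried an engineered allele. Cachexia was defined in the study by marked loss of body weight, so tumor burden and weight loss come together in the cachexia group and cannot be told apart. The samples of each group are numbered 1 to 3, and each is taken as the tissue of 1 mouse, since no pooling is described. Whole tissue was sequenced, and fewer cells of a type and less RNA per cell cannot be told apart in such data.

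Brown and beige adipocytes burn fuel through UCP1, a carrier of the inner mitochondrial membrane that lets protons return to the matrix without making ATP. Cold or sympathetic nerves activate beta-adrenergic receptors, and cyclic AMP then raises lipolysis and the transcription of Ucp1, Dio2 and Ppargc1a. Browning is the appearance of such cells in white fat, and the epididymal pad is a depot in which it is usually sparse.

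Libraries held 14928766 to 18855546 counted reads, and the control libraries were the deeper ones, at 18475204 to 18855546 against 14928766 to 17278966 in cachexia. A single read was worth 0.0502 to 0.0656 CPM (the normalised read count, relative to the library total scaled with TMM factors), so a gene with 3 reads, the limit that a count of 0 allows, lay at 0.151 to 0.197 CPM in a library. The 15 adipocyte markers summed to 36210-51960 CPM in control mice and 38860-53860 CPM in cachectic mice. This shows fat tissue, but these markers do not tell fat depots apart. Zic1 and Lhx8, which define classical brown fat, had 0 reads in all 6 samples. Of the other 3 genes on the list of brown fat defining markers, Ucp1 is described further on, and Epsti1 (4.92 to 11.5 CPM) and Eva1a (2.15 to 9.28 CPM) were expressed in every mouse, so that the list summed to 12.1-20.1 CPM in control mice and 11.7-12.9 CPM in cachectic mice. Control replicate 1 stood apart from the other controls on the second principal component (47.2 against -28.8 and -23.3), and cachexia replicate 2 held most reads of several members, as given with each gene. Among the 16003 genes that passed the filter on low counts, edgeR's quasi-likelihood test called 17.6% at an adjusted p under 0.05, with 9.0% higher and 8.63% lower in cachexia, and the values of the groups did not overlap for 40.5% of the genes.

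Of the 10 members, 6 passed that filter and 4 (Ucp1, Elovl3, Ckmt2 and Tmem26) did not. No member was upregulated and 1, Dio2, was downregulated in cachectic mice, with edgeR's Benjamini-Hochberg adjusted p over all genes tested (1 of 6, beside 17.6% of all genes tested). DESeq2, limma-voom and limma on log2 FPKM also called 0 members higher and 1 lower. At an unadjusted p under 0.05, Cox8b was higher, and Dio2 and Cox7a1 were lower. Among the 6 tested members, Dio2 was also the only gene whose groups did not overlap (1 of 6, beside 40.5% of all genes tested). Among the 4 members not tested, the groups of Elovl3 (higher) and Tmem26 (lower) did not overlap. The 40.5% covers tested genes only, and no share was formed for genes under the filter. The nearest mice for Elovl3 had 1 read (control replicate 2) and 2 reads (cachexia replicate 3). With 3 mice against 3, an exact two-sided permutation test for 1 gene cannot go below 0.1.

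**Figure D1:**
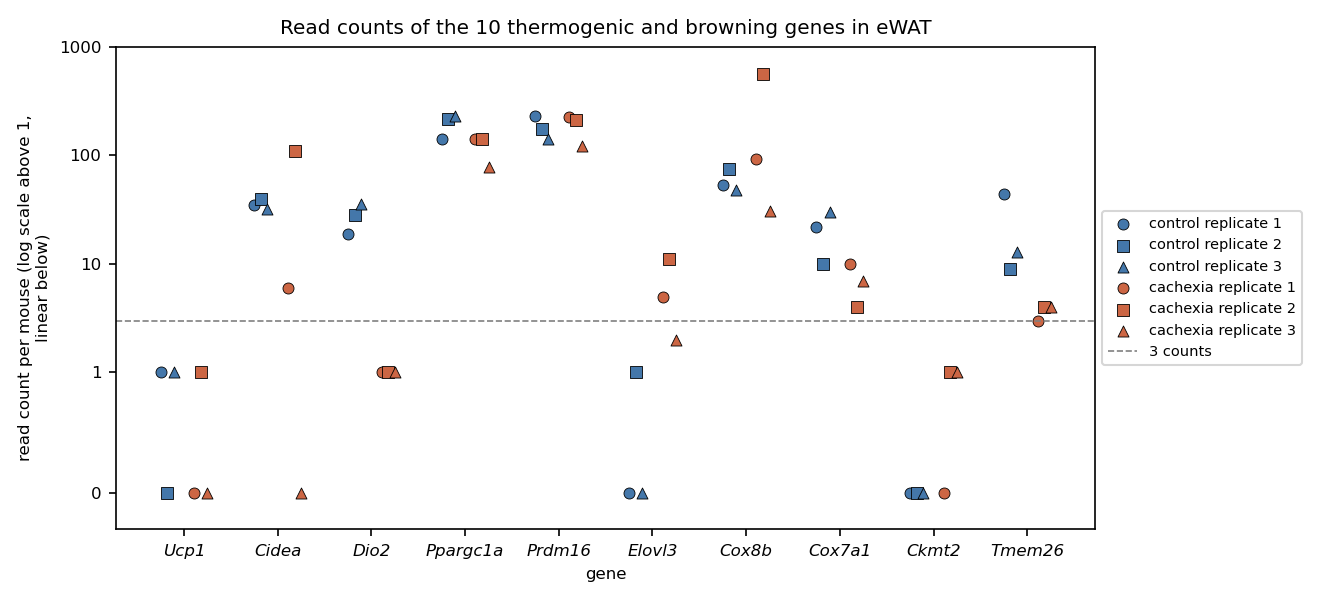
Read counts of the 10 thermogenic and browning genes in each mouse (vertical axis, logarithmic above 1 and linear below; blue, control; orange, cachexia; the marker shape gives the replicate; dashed line, 3 counts). Dio2 stood at 1 read in each cachectic mouse against 19 to 36 in controls, Ucp1 and Ckmt2 never passed 1 read, and cachexia replicate 2 was the highest mouse for Cidea, Elovl3 and Cox8b.

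The promoters of Dio2 and Ucp1 are shown because Dio2 was the member that fell and Ucp1 is the gene that defines thermogenic fat, and both are textbook targets of the cyclic AMP pathway. The sequences are the 250 bases before each gene's start in RefSeq (build GRCm38.p6), on the strand of the gene, and promoter windows of 8 of the 10 members were at hand. Capitals mark the full cyclic AMP response element TGACGTCA in Dio2 (-95 to -88 from the gene start) and the nuclear receptor motif AGGTCA in Ucp1 (-14 to -9). The Dio2 window lies at chr12:90739039-90739288, minus strand, and its RefSeq start is 600 bases upstream of the gene boundary used for counting. The Ucp1 window lies at chr8:83290098-83290347, plus strand.
Dio2: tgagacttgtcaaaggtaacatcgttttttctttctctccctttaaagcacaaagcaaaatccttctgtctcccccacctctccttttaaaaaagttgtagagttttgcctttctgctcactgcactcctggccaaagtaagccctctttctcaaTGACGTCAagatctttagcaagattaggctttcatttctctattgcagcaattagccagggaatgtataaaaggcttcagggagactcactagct
Ucp1: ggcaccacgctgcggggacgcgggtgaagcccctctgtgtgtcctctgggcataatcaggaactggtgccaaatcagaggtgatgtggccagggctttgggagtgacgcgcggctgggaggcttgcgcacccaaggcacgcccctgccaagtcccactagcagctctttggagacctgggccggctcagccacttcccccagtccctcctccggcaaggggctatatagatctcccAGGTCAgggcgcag
Searched on both strands with exact letters, TGACGTCA was present in 1.55% of 32851 promoter windows of the same length and AGGTCA in 14.0%. Of the 8 members with a window, Dio2 alone held the first motif and Ucp1 alone the second in these exact letters. Variants of the motifs were not searched for, so the other windows may hold them. The longer estrogen-related receptor element TCAAGGTCA, which contains AGGTCA, was present in 0.387% of windows and in none of the 8. A match is a description of the letters and not evidence of binding.

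Ucp1 (ENSMUSG00000031710, chr8:83290352-83298452, plus strand, GRCm38) was not detectable as an expressed gene in either group. Its counts were 1, 0 and 1 reads in control replicates 1 to 3 and 0, 1 and 0 in cachexia replicates 1 to 3. Both groups lay under the 3-read limit over the pooled libraries, which is 0.0545 CPM for controls and 0.0616 CPM for cachexia, so no fold was formed. A rise of Ucp1 that stayed under this limit could not have been detected at this depth.

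The paralogs Ucp2 and Ucp3, mitochondrial carriers that are not the uncoupler of brown fat, were abundant enough to test, and both rose. Ucp2 was at 203, 168 and 180 CPM in control mice and 313, 293 and 577 CPM in cachectic mice, with every cachectic mouse above every control. Its log2 fold change was 1.10 (SE 0.27, edgeR adjusted p = 0.0304). Ucp2 is also expressed by leukocytes. The summed level of the 12 neutrophil markers was 42.6-180 CPM in controls and 308-924 CPM in cachexia. Of these markers, 9 of 11 tested were higher, beside 9.0% of all genes tested. Their part in the Ucp2 result was not tested. Ucp3, which is best known from muscle and brown fat, was at 12.5, 26.6 and 18.9 CPM in controls and 44.8, 45.0 and 29.8 CPM in cachexia. Its log2 fold change was 1.05 (SE 0.29, edgeR adjusted p = 0.0421). Neither its groups nor those of Ucp2 overlapped, which was so for 40.5% of all genes tested. Of the skeletal muscle markers, none of the 9 tested was higher and 2 (Myl1 and Actn3) were lower, beside 8.63% of all genes tested. The part of these markers in the Ucp3 result was not tested. The call was lost in 4 of 15 alternatives for Ucp2, among them each that left out a control library (adjusted p up to 0.111), and in 5 of 15 for Ucp3 (adjusted p up to 0.134).

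Dio2 (ENSMUSG00000007682, chr12:90724552-90738438, minus strand) encodes the deiodinase that converts thyroxine into the active thyroid hormone inside the cell, a step that amplifies thermogenesis in brown fat. Dio2 had 19, 28 and 36 reads in control mice and 1 read in each of the 3 cachectic mice. This was 0.953, 1.60 and 2.04 CPM in controls and 0.0583, 0.0614 and 0.0656 CPM in cachexia. The groups were far apart, but the level was low also in controls. The fitted log2 fold change was -4.48 (SE 0.58, 95% interval -5.83 to -3.13, edgeR adjusted p = 0.00374). From the pooled reads, 83 against 3, the control level was 24.5-fold that of cachexia, with an exact counting interval of 8.09 to 121. The pooled cachexia level of 0.0616 CPM lay at the limit of 3 pooled reads, and each cachectic mouse was under the 3-read limit of its library. The size of the fall therefore rested on 3 cachexia reads. Dio2 passed the filter through its control counts alone. With no filter on low counts its adjusted p was 0.00228, and the control level was 20.4-fold to 29.6-fold that of cachexia when each library in turn was left out.

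Of the other deiodinases, Dio3, which inactivates thyroid hormones, fell as well. Dio3 had 37, 34 and 31 reads in control mice and 3, 1 and 0 in cachectic mice, the latter at or under the 3-read limit. This was 1.86, 1.95 and 1.76 CPM against 0.175, 0.0614 and 0 CPM. The log2 fold change was -4.39 (SE 0.68, edgeR adjusted p = 0.00656), and -5.58 without cachexia replicate 1 (edgeR adjusted p = 0.0124). Like Dio2, Dio3 passed the filter through its control counts alone. With no filter on low counts its edgeR adjusted p was 0.00412. Dio1, the deiodinase of liver and kidney, did not pass the filter, and its reads came mainly from control replicate 1, at 1.71 CPM against 0 in the other controls. The thyroid hormone receptors Thra and Thrb did not pass the test, at log2 fold changes of -0.05 and 0.44 (edgeR adjusted p = 0.870 and 0.139).

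Ppargc1a (ENSMUSG00000029167, chr5:51454250-51567726, minus strand) encodes PGC-1 alpha, a coactivator that drives mitochondrial biogenesis and Ucp1 transcription. It had 141, 216 and 229 reads in control mice and 141, 143 and 78 in cachectic mice, or 7.07, 12.4 and 13.0 CPM against 8.22, 8.78 and 5.11 CPM. The cachexia values overlapped those of control replicate 1, and the log2 fold change of -0.55 (SE 0.31, 95% interval -1.27 to 0.17) did not pass the test (edgeR adjusted p = 0.252). Its relatives Ppargc1b and Pprc1, coactivators of the same family, also did not pass, at 0.26 (SE 0.47) and -0.12 (SE 0.21). By FPKM, the authors' value normalised to gene length and library size, Ppargc1a made up 44.4%, 43.5% and 44.1% of the sum of Ppargc1a and Ppargc1b in control mice. In cachectic mice it made up 32.4%, 25.5% and 43.6%, so cachexia replicates 1 and 2 were below the controls and cachexia replicate 3 within their range; this share was not given a test of its own.

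Prdm16 (ENSMUSG00000039410, chr4:154316125-154636873, minus strand) encodes a transcriptional regulator that sets brown and beige adipocyte identity. It had 229, 177 and 141 reads in control mice and 225, 214 and 123 in cachectic mice, and 11.5, 10.1 and 7.99 CPM against 13.1, 13.1 and 8.06 CPM. These groups overlapped, and the log2 fold change was 0.21 (SE 0.25, edgeR adjusted p = 0.596). The 95% interval of -0.37 to 0.80 bounded the change of Prdm16 more tightly than that of any other tested member. Its paralog Mecom, a related zinc finger regulator, was at 21.5 to 27.7 CPM in control mice and 26.0 to 51.8 CPM in cachectic mice, with a log2 fold change of 0.56 (SE 0.26, edgeR adjusted p = 0.173).

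Among 32 other regulators of thermogenesis, 27 were tested, 2 rose and 2 fell (beside 9.0% and 8.63% of all genes tested). Their median log2 fold change was 0.02, beside -0.003 over all genes tested. The list holds both activators and repressors of thermogenesis, so its median gives no direction for the program. This list and the lists further on were written by role, with earlier results of these data known. The shares over all genes are therefore a reference beside their counts and not a test. Irf4, a fasting-induced transcription factor that partners PGC-1 alpha in brown fat, rose from 8.68, 17.8 and 11.9 CPM to 277, 153 and 352 CPM (log2 fold change 4.35, SE 0.39, edgeR adjusted p = 0.00134). Nr1d1, the clock repressor REV-ERB alpha, rose at a log2 fold change of 2.10 (edgeR adjusted p = 0.0383), although cachexia replicate 3, at 40.9 CPM, lay within the control range of 26.9 to 47.7 CPM, and its call was lost in 9 of 15 alternatives (adjusted p up to 0.127). Irf4 is also used by lymphocytes and macrophages. Of 11 macrophage markers, 2 were higher and 1 lower, beside 9.0% and 8.63% of all genes tested. The part of lymphocytes and macrophages in the Irf4 result was not tested.

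The 2 regulators that fell were Nrip1 and Bmp7. Nrip1, a corepressor that holds down Ucp1 and Cidea in white adipocytes, fell from 227, 366 and 406 CPM to 114, 126 and 103 CPM (log2 fold change -1.54, SE 0.23, edgeR adjusted p = 0.00587). Bmp7, a secreted inducer of brown adipocyte formation, was low and scattered among controls, at 11.7, 1.61 and 3.23 CPM against 0.292, 0.491 and 1.18 CPM (log2 fold change -3.08, SE 0.84, edgeR adjusted p = 0.0421), and its call was lost in 9 of 14 alternatives. With 5, 8 and 18 reads in cachectic mice, Bmp7 passed the filter through its control counts alone. With no filter on low counts its edgeR adjusted p was 0.0184. Without control replicate 1 the log2 fold change of Bmp7 was -1.89 (edgeR adjusted p = 0.0919), and without cachexia replicate 3 it was -3.80 (edgeR adjusted p = 0.0538). Adrb3, the main adrenergic receptor of mouse fat cells, was at 526-1108 CPM in control mice and 472-1123 CPM in cachectic mice and did not pass the test (log2 fold change -0.08, edgeR adjusted p = 0.902).

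Cidea (ENSMUSG00000024526, chr18:67343564-67367794, plus strand) encodes a lipid droplet protein that is typical of brown and beige adipocytes. Its reads numbered 35, 40 and 32 in control mice and 6, 109 and 0 in cachectic mice, that is 1.76, 2.29 and 1.81 CPM against 0.350, 6.69 and 0 CPM. The controls lay close together, whereas cachexia replicate 2 was above and the other cachectic mice below all of them, and that mouse held 94.8% of the cachexia reads. The log2 fold change was 0.27 with an SE of 1.24 (95% interval -2.60 to 3.13, edgeR adjusted p = 0.901). Without cachexia replicate 2 it was -3.38 (edgeR adjusted p = 0.0604), so the direction of Cidea rested on 1 mouse.

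Cidec, the family member that builds the large droplet of white adipocytes, was far more abundant than Cidea per length. Cidea was 0.105% to 0.150% of the summed FPKM of both genes in control mice and 0.0128%, 0.249% and 0% in cachexia replicates 1, 2 and 3. Cidec rose from 2032, 2436 and 2760 CPM to 4369, 4284 and 4561 CPM (log2 fold change 0.87, SE 0.22, edgeR adjusted p = 0.0322). The call of Cidec was lost in 10 of 15 alternatives, among them each that left out a library (adjusted p up to 0.115). Cideb, the liver form, did not pass the filter.

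Elovl3 (ENSMUSG00000038754, chr19:46131897-46135307, plus strand) encodes a fatty acid elongase that is induced by cold in brown fat. It had 0, 1 and 0 reads in control mice and 5, 11 and 2 in cachectic mice, or 0, 0.0573 and 0 CPM against 0.292, 0.676 and 0.131 CPM. Every cachectic mouse was above every control, but the 2 reads of cachexia replicate 3 were under the 3-read limit, and Elovl3 did not pass the filter. The pooled reads were 18 against 1, and the pooled control level of 0.0182 CPM lay under the control limit of 0.0545 CPM. The ratio of cachexia to control of 20.3 (exact counting interval 3.21 to 848) therefore rested on 1 control read. With no filter on low counts the log2 fold change was 3.87 (SE 1.36) and did not pass the test (edgeR adjusted p = 0.101). Cachexia replicate 2 held 61.1% of the cachexia reads, and without it the ratio was 11.9, with an interval of 1.53 to 536. The only control read came from control replicate 2, and without that library Elovl3 was at least 4.63-fold higher in cachexia, against a limit of 3 pooled control reads.

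Other elongases were far more abundant and did not move together. Elovl6, which lengthens palmitate during lipogenesis, fell from 44.2, 192 and 113 CPM to 7.52, 11.7 and 11.0 CPM (log2 fold change -3.53, SE 0.51, edgeR adjusted p = 0.00516). Elovl1 and Elovl5, elongases of saturated and of polyunsaturated fatty acids, did not pass the test, at -0.54 (edgeR adjusted p = 0.0519) and 0.20 (edgeR adjusted p = 0.353). Elovl1 was called lower in 3 alternatives, by DESeq2 (adjusted p = 0.0281), by limma on log2(FPKM + 0.1) (adjusted p = 0.0497) and without cachexia replicate 3 (edgeR adjusted p = 0.0255). Elovl7 was at -1.44 (edgeR adjusted p = 0.201) and at -0.22 without control replicate 1, and Elovl2 and Elovl4 did not pass the filter.

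Cox8b (ENSMUSG00000025488, chr7:140898945-140900446, minus strand) encodes a subunit of cytochrome c oxidase that is found in brown fat, heart and skeletal muscle. It had 53, 75 and 48 reads in control mice and 92, 565 and 31 in cachectic mice, or 2.66, 4.30 and 2.72 CPM against 5.37, 34.7 and 2.03 CPM. Cachexia replicate 2 held 82.1% of the cachexia reads, cachexia replicate 1 was above the controls and cachexia replicate 3 below them. The log2 fold change was 2.12 (SE 0.91, 95% interval 0.02 to 4.23, edgeR adjusted p = 0.143). Without cachexia replicate 2 it was 0.21 (edgeR adjusted p = 0.811).

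Cox8b and Cox8a, the ubiquitous isoform, can be set side by side by FPKM. Cox8b was 1.36%, 1.78% and 1.12% of their sum in control mice and 2.04%, 18.9% and 1.01% in cachexia replicates 1, 2 and 3. Cox8a had a log2 fold change of -0.15 (SE 0.22, edgeR adjusted p = 0.682). The summed level of the 20 skeletal muscle markers was 81.5 to 121 CPM in control mice and 33.8, 23.1 and 89.2 CPM in cachexia replicates 1, 2 and 3. The part of muscle RNA in the Cox8b values was not tested.

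Cox7a1 (ENSMUSG00000074218, chr7:30184144-30186078, plus strand), another oxidase subunit of muscle and brown fat, had values in the opposite direction to Cox8b. It had 22, 10 and 30 reads in control mice and 10, 4 and 7 in cachectic mice, or 1.10, 0.573 and 1.70 CPM against 0.583, 0.246 and 0.459 CPM. The groups met at control replicate 2 and cachexia replicate 1. The log2 fold change was -1.37 (SE 0.55, 95% interval -2.66 to -0.09) and did not pass the test after adjustment (edgeR adjusted p = 0.124). As a share of the summed FPKM of Cox7a1 and the ubiquitous Cox7a2, it was 2.11%, 1.06% and 2.74% in controls and 0.856%, 0.562% and 0.674% in cachexia, with no test of its own. Of the 9 skeletal muscle markers tested, 2 fell, beside 8.63% of all genes tested, and 7 were not called. The 2 were Myl1 (log2 fold change -1.95, edgeR adjusted p = 0.0236) and Actn3 (-2.17, edgeR adjusted p = 0.0117). The summed level of the whole list was 81.5 to 121 CPM in control mice and 33.8, 23.1 and 89.2 CPM in cachexia replicates 1, 2 and 3. The part of muscle RNA in the Cox7a1 values was not tested. Cox7a2 was nearly level, at 0.11 (SE 0.19, edgeR adjusted p = 0.714), while Cox7a2l, a factor in the assembly of respiratory supercomplexes, rose at 0.94 (SE 0.22, edgeR adjusted p = 0.0241), a call that was lost in 4 of 15 alternatives (adjusted p up to 0.102).

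**Figure D2:**
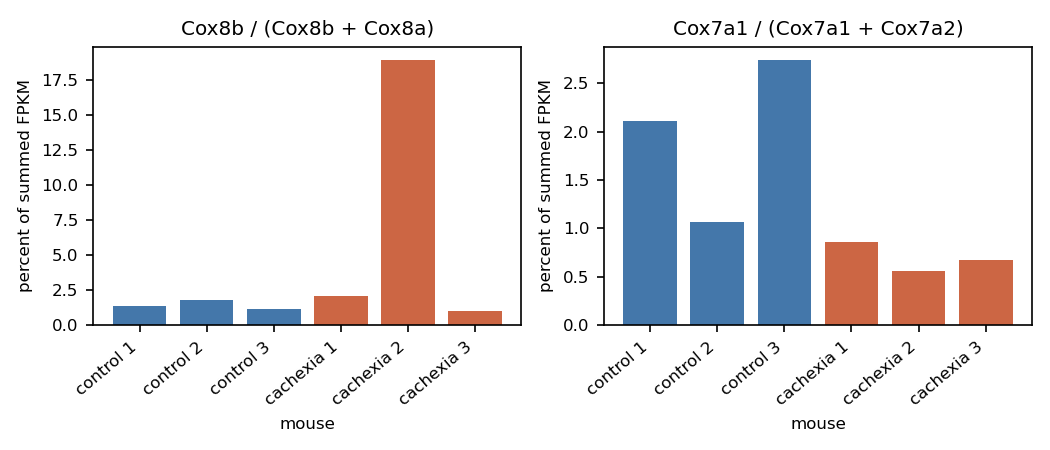
Percent of summed FPKM taken by Cox8b of Cox8b plus Cox8a (left) and by Cox7a1 of Cox7a1 plus Cox7a2 (right), 1 bar per mouse, with the panels on different scales. Cox8b reached 18.9% in cachexia replicate 2 and stayed at 1.01% to 2.04% in the other 5 mice, and the Cox7a1 share was 0.562% to 0.856% in cachectic mice against 1.06% to 2.74% in controls.

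Ckmt2 (ENSMUSG00000021622, chr13:91853387-91876885, minus strand), the mitochondrial creatine kinase of striated muscle and of creatine cycling in beige fat, was not detectable. It had 0 reads in each control mouse and 0, 1 and 1 in the cachectic mice, under the limit of 3 pooled reads in both groups, and no fold was formed. Ckb, the cytosolic creatine kinase that serves the creatine cycle in thermogenic fat, was measurable and fell. It was at 220, 88.7 and 84.1 CPM in control mice and 46.3, 43.4 and 29.2 CPM in cachectic mice (log2 fold change -1.72, SE 0.39, edgeR adjusted p = 0.0230). This call was lost without any 1 of the 3 cachexia libraries (adjusted p up to 0.0687). Without control replicate 1, which had the highest Ckb, the log2 fold change was -1.12 (edgeR adjusted p = 0.0181). Ckmt1 and Ckm did not pass the filter.

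**Figure D3:**
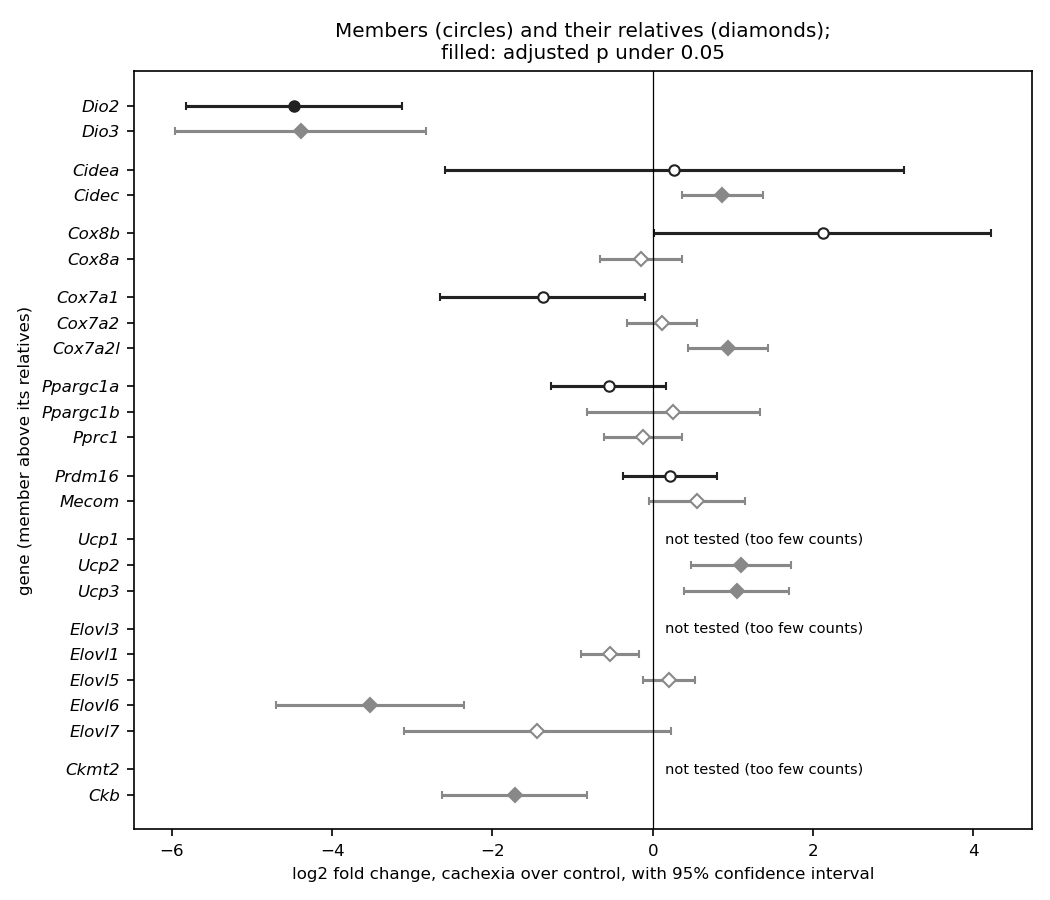
Log2 fold change of cachexia over control (horizontal axis) with its 95% confidence interval for the tested members (circles) and relatives (diamonds), grouped by family, where filled symbols have an adjusted p under 0.05. Dio2 and Dio3 lay far to the left, the interval of Cidea ran from -2.60 to 3.13, and members with too few counts have no symbol.

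In all, 15 of the 21 relatives were tested, with a median log2 fold change of 0.11. Of these, 4 rose (Ucp2, Ucp3, Cidec and Cox7a2l) and 3 fell (Dio3, Elovl6 and Ckb), beside 9.0% and 8.63% of all genes tested. Among 28 further effectors of thermogenesis, 21 were tested, 2 rose and 3 fell (beside 9.0% and 8.63% of all genes tested). The median log2 fold change of these effectors was -0.16. The 3 that fell were Gatm (-2.65, edgeR adjusted p = 0.00493) and Gamt (-2.24, edgeR adjusted p = 0.00265), the enzymes of creatine synthesis, and Pm20d1 (-2.51, edgeR adjusted p = 0.0145), a secreted enzyme that makes uncoupling amino acid conjugates. The call of Pm20d1 was lost without control replicate 3 or cachexia replicate 1 (adjusted p up to 0.0644). Gatm was at 26.6, 12.2 and 23.5 CPM in control mice against 4.72, 2.52 and 2.62 CPM in cachectic mice. Gamt was at 25.7, 28.5 and 34.2 CPM against 8.69, 5.04 and 4.92 CPM. The groups of both enzymes did not overlap, which was so for 40.5% of all genes tested. The creatine transporter Slc6a8 did not pass the test (-0.17, edgeR adjusted p = 0.741).

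The 2 effectors that rose were Kcnk3 and Pnpla2. The list of effectors does not separate genes that raise heat production from genes that limit it. Kcnk3, a potassium channel that sets the membrane potential of thermogenic adipocytes, was at 12.8, 27.9 and 23.9 CPM in control mice and 61.2, 179 and 48.8 CPM in cachectic mice (log2 fold change 2.16, SE 0.52, edgeR adjusted p = 0.0279). Its highest value was in cachexia replicate 2, and its call was lost without any 1 of the 3 control libraries (adjusted p up to 0.0913). Without cachexia replicate 2 the log2 fold change of Kcnk3 was 1.36 (edgeR adjusted p = 0.0381). Pnpla2, the adipose triglyceride lipase, rose from 1488 ± 152 to 3147 ± 625 CPM (SD, n = 3; log2 fold change 1.08, edgeR adjusted p = 0.0197), a call lost in 4 of 15 alternatives. Ppara and Plin5, a fatty acid sensor and a droplet protein of oxidative tissue, did not pass the test (edgeR adjusted p = 0.488 and 0.256). Cachexia replicate 2 was the highest of the 6 mice for both, at 26.5 and 28.2 CPM. The same mouse was the lowest of the 6 for the receptors Adrb3, Adrb1 and Ffar4, at 472, 1.04 and 8.97 CPM. These genes were picked after their values were seen, and how often that mouse was highest or lowest was not counted.

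**Figure D4:**
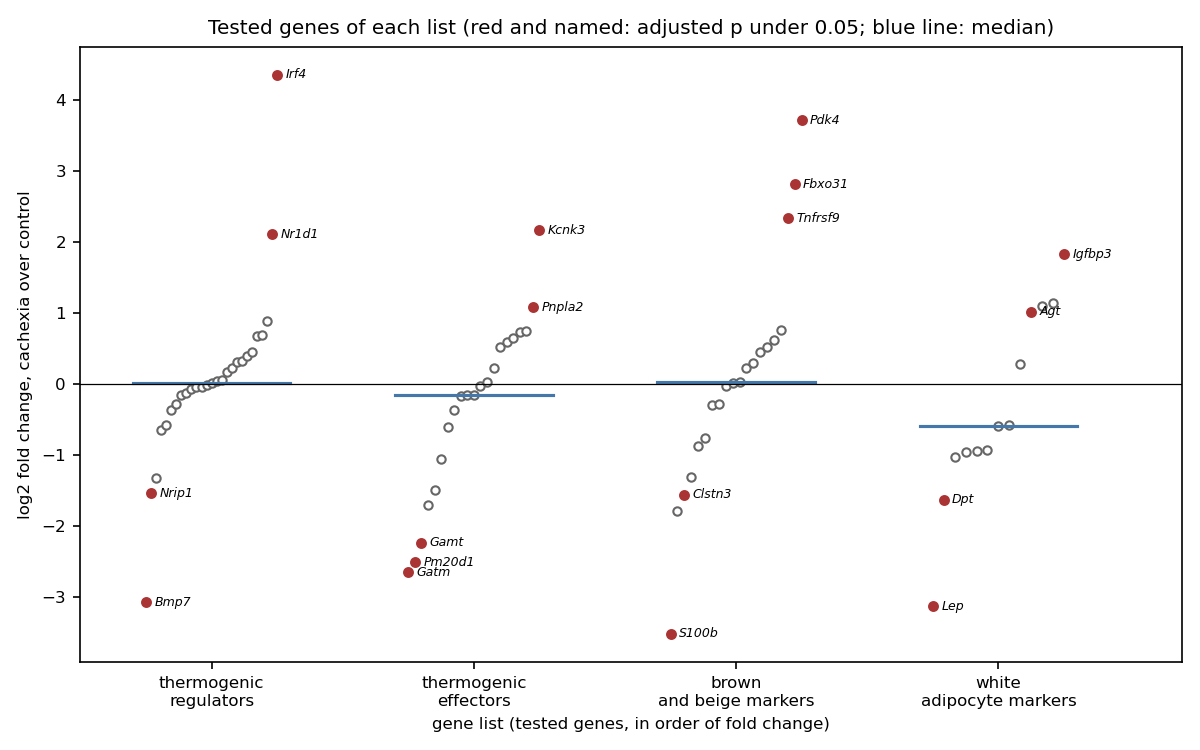
Log2 fold change of cachexia over control (vertical axis) of each tested gene in 4 lists, ordered within the list, with a blue line at the list median; red, named points have an adjusted p under 0.05. Genes called in each list lay on both sides of 0, with Irf4 highest at 4.35 and S100b lowest at -3.52.

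Tmem26 (ENSMUSG00000060044, chr10:68723646-68782650, plus strand), a membrane protein used as a marker of beige adipocytes, had few reads. There were 44, 9 and 13 reads in control mice and 3, 4 and 4 in cachectic mice, or 2.21, 0.516 and 0.737 CPM against 0.175, 0.246 and 0.262 CPM. All cachectic mice were below all controls, and control replicate 1 held 66.7% of the control reads. Pooled, 66 against 11 reads made the control level 5.31-fold that of cachexia, with an exact counting interval of 2.78 to 11.1. Without control replicate 1 the ratio was 2.77, with an interval of 1.29 to 6.34. With no filter on low counts the log2 fold change was -2.31 (SE 0.75) and did not pass the test (edgeR adjusted p = 0.0746). The 11 epididymis markers summed to 4.62 CPM in control replicate 1 and to 0.852-1.52 CPM in the other mice, and their part in the Tmem26 value of that mouse was not tested.

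Among 25 other brown and beige markers, 20 were tested, 3 rose and 2 fell (beside 9.0% and 8.63% of all genes tested). Their median log2 fold change was 0.02. Pdk4, a kinase that shifts fuel use from glucose to fatty acids, rose from 34.0, 44.9 and 42.4 CPM to 197, 810 and 585 CPM (log2 fold change 3.71, SE 0.49, edgeR adjusted p = 0.00385). Fbxo31, a ubiquitin ligase component, rose from 44.5 ± 3.59 to 311 ± 148 CPM (SD, n = 3; log2 fold change 2.81, edgeR adjusted p = 0.00302). Tnfrsf9, the beige marker CD137 and also a receptor of activated lymphocytes, rose from 0.671 ± 0.0932 to 3.40 ± 0.716 CPM (SD, n = 3; log2 fold change 2.33, edgeR adjusted p = 0.00644). Pdk4 and Fbxo31 are not restricted to brown and beige adipocytes. Clstn3 (-1.57, edgeR adjusted p = 0.0148), whose adipose form takes part in sympathetic innervation, and S100b (-3.52, edgeR adjusted p = 0.00802), a trophic factor for those nerves, fell. The call of Clstn3 was lost without control replicate 2 (edgeR adjusted p = 0.0557) or 3 (edgeR adjusted p = 0.0645). Tbx1 and Slc36a2, both used as markers of beige or brown cells, did not pass the test, at -1.79 (edgeR adjusted p = 0.242) and 0.75 (edgeR adjusted p = 0.140).

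The 14 white adipocyte markers, of which 13 were tested, gave 2 higher and 2 lower (beside 9.0% and 8.63% of all genes tested). Their median log2 fold change was -0.60. Lep, the hormone of stored fat, was at 1020 ± 212 CPM in control mice and 116 ± 111 CPM in cachectic mice (SD, n = 3; log2 fold change -3.14, edgeR adjusted p = 0.0475), and Dpt, a matrix protein, fell at -1.63 (edgeR adjusted p = 0.0196). Agt, the precursor of angiotensin, rose at 1.01 (edgeR adjusted p = 0.0444), and Igfbp3, a carrier of insulin-like growth factors, rose at 1.82 (edgeR adjusted p = 0.0346). These calls were lost in 5 of 15 alternatives for Lep, 3 for Dpt, 8 for Agt and 6 for Igfbp3. Without cachexia replicate 3, the log2 fold change of Igfbp3 was 0.98 (edgeR adjusted p = 0.00810) and that of Lep was -4.11 (edgeR adjusted p = 0.0398). Counted once each, the 4 lists held 81 tested genes, with 9 upregulated and 9 downregulated, and a median log2 fold change of -0.03. Over all genes tested, 9.0% were higher and 8.63% lower in cachexia.

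Levels can be compared among members only per gene length. By the authors' FPKM, Cox8b was the highest member in both groups, at 8.84 ± 2.53 in control mice and 38.1 ± 48.7 in cachectic mice (SD, n = 3). In control mice Cox7a1 (2.08 ± 1.04), Cidea (1.66 ± 0.246), Ppargc1a (1.62 ± 0.484) and Prdm16 (1.05 ± 0.188) followed. Cox7a1 and Cidea differed by less than the SD of Cox7a1 but more than that of Cidea, Cidea and Ppargc1a by less than the SD of either, and Ppargc1a and Prdm16 by more than the SD of either. Dio2 (0.260 ± 0.0927) and Tmem26 (0.216 ± 0.173) were next, and Ucp1 (0.0215 ± 0.0187) and Elovl3 (0.0126 ± 0.0218) were lowest among the members with any control read. By comparison, Cidec was at 1282 ± 193 FPKM in control mice.

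The cell markers measured beside these genes moved as follows, where 9.0% of all genes tested were higher and 8.63% lower. Endothelial markers were higher for 6 of 10 (summed 1729-1800 CPM in controls and 2631-3706 CPM in cachexia), led by Pecam1, Cdh5 and Kdr in level. Erythroid markers were higher for 6 of 6 tested, with Hbb-bs, Hba-a1 and Hbb-bt the most abundant. Macrophage markers, led by Lyz2, Csf1r and Mrc1, summed to 1587-1986 CPM and 1326-2064 CPM. Mesothelial markers did not pass the test for any of 7, and none of the 11 epididymis markers passed the filter. Of the adipocyte markers, 2 of 15 were higher, 2 were lower and 11 did not pass. The part of these shifts in the results above was not tested.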

How the data were processed

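Epididymal fat of 3 control and 3 cachectic mice was sequenced by RNA-seq (total RNA, NEBNext Ultra libraries). The authors removed low-quality and adapter reads, aligned with Hisat2 and deposited raw read counts per gene from featureCounts 1.5.0-p3; the strand setting is not given in the sources used here. The authors also deposited FPKM, that is counts normalised to gene length and library size, used here only for levels between genes and as alternatives. A deposited table of the authors' own comparison (DESeq2 1.16.1 fold changes and p-values) was not used. The submitters' processing notes name mm9, but 99.8% of gene identifiers were in GENCODE M21 (GRCm38) and 98.3% of these had the same coordinates, so coordinates are given as GRCm38. Cidea and Elovl3 are given as in the deposited table, where their coordinates differ from GENCODE M21.

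Counts were fitted in edgeR 4.0.16 (R 4.3.3) with its default filter on low counts by group, TMM factors, a quasi-likelihood test of cachexia against control with no covariate, and Benjamini-Hochberg adjustment over all 16003 genes tested, at a threshold of 0.05. Exact permutation tests used log2(CPM + 0.5). Intervals of pooled reads are exact (Clopper-Pearson, 95%) and cover counting error only, as does the limit of 3 reads. Where reads of a pair of genes share exons on opposite strands (1.72% of the exon bases of Dio2, 1.17% of Prdm16 and 5.65% of Ckmt2) they may not be separable. No pair of libraries agreed within sampling noise (smallest chi-square per degree of freedom 11.9), so all were counted as separate samples. P-values measure the spread between these samples.

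The named genes are all 10 members, their 21 relatives (family members) and the genes of 4 wider lists that passed the threshold (at most 6 per list and direction). Of the lists of other cells, the 3 most abundant markers are named for endothelial, erythroid and macrophage cells only. Myl1 and Actn3 are named because they were the 2 muscle markers called lower. Genes named beside these (receptors, Slc6a8, Ppara, Plin5, Tbx1, Slc36a2 and Actn3 among them) were picked from the lists after their values were seen. A gene of the list of regulators is not reported here and is left out of that list's counts. The members and lists were chosen with earlier results of these data known. Gyk, Cd137 and Wdnm1 are older names or aliases with no row. The fits were tested on simulated data. Alternatives were RLE size factors, plain library totals, no filter, at least 10 counts in every sample, DESeq2 1.42.0, limma-voom 3.58.1, limma on log2(FPKM + 1) and log2(FPKM + 0.1), leaving out each library, and a replicate block.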

Additional observations from a re-analysis of the deposited data

How the results depend on the processing

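Dio2 was called lower in each of the 14 alternatives that could test it (adjusted p 0.000149 to 0.0408, edgeR, DESeq2 or limma), with log2 fold changes of -4.73 to -0.32, the smallest on the log2(FPKM + 1) scale, which compresses low genes. With at least 10 counts required in every sample Dio2 was not tested, and the count of members lower was 0. No alternative called any other member. Cidea changed sign in 5 alternatives: its log2 fold change was -1.35 with the replicate block, -2.12 by limma-voom, -0.37 on log2(FPKM + 1) and -1.52 on log2(FPKM + 0.1), and -3.38 to 0.85 when 1 library was left out. Of the relatives, Ppargc1b (-0.209), Pprc1 (0.0617) and Cox8a (0.035) changed sign without cachexia replicate 2, and ran from -0.209 to 0.637, -0.366 to 0.0617 and -0.362 to 0.035 over the libraries left out. Calls lost without 1 library were Ucp2 and Kcnk3 (any control), Ucp3 (control 1 or 3, cachexia 1 or 2), Cidec (any library), Cox7a2l (control 2 or 3, cachexia 1 or 2), Ckb (any cachexia), Pm20d1 (control 3, cachexia 1), Clstn3 (control 2 or 3), Dpt (control 2 or 3, cachexia 3), Pnpla2 (control 2 or 3, cachexia 1), Igfbp3 (any control), Nr1d1 and Agt (any but cachexia 3), Bmp7 (any but control 2) and Lep (any control, cachexia 1). The calls of Dio3, Elovl6, Irf4, Nrip1, Gatm, Gamt, Pdk4, Fbxo31, Tnfrsf9 and S100b held in each alternative that tested them. Relatives called higher numbered 4 in the main analysis, 2 with the replicate block, 2 on log2(FPKM + 1), and 0 to 3 with 1 library left out (0 without control replicate 3, and 1 without control replicate 1 or 2 or cachexia replicate 1 or 2). Over the 4 wider lists, 9 were called higher in the main analysis, 5 with the replicate block and 4 to 11 with 1 library left out (5, 4 and 4 without control replicates 1, 2 and 3), and 9 were called lower, 18 by DESeq2 and 4 to 10 with 1 library left out (4 without control replicate 3). Over all genes, 1440 were called higher, 913 with the replicate block and 382 to 1197 with 1 library left out, and 1381 were called lower, 446 to 1142 with 1 library left out (600 higher and 712 lower without control replicate 2, and 382 and 446 without control replicate 3). Leaving out a library leaves 2 samples in its group; the cause of the other changes was not tested. Replicate numbers do not tie mice of the groups together, and the deviations of same-numbered samples correlated at -0.00314, -0.0113 and 0.00849, so the block is given as an alternative and not as a pairing. Reads limit Ucp1, Elovl3, Ckmt2 and Tmem26: with no filter, none passed the test (adjusted p = 0.863, 0.101, 0.483 and 0.0746, edgeR).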
